A study of Homo sapiens with 12 samples.

Results

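The genes described here are 45 listed genes of DNA repair and of the checkpoint that answers DNA damage. They were taken by gene symbol from the array annotation, using every probe set that carries that symbol alone. This gave 41 of the 45 genes on both array types, with 67 of 22215 probe sets on the smaller type and 96 of 54613 on the larger. BRCA2, FANCA, FANCD2 and PMS2 were not analysed here. By role the 41 genes were 5 of mismatch repair, 11 of homologous recombination, 4 checkpoint kinases, 6 of the Fanconi anaemia pathway, 3 of end joining, 5 of base excision and single-strand break repair, 5 of nucleotide excision repair, and the pair POLH and MGMT.

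Expression had been measured in 12 samples of 4 groups, 3 samples each, of human prostate cancer cell lines. DU145 and 22Rv1 are the parental lines, sensitive to docetaxel and grown in RPMI with fetal bovine serum and no drug. DU145-DR and 22Rv1-DR are lines selected from them for docetaxel resistance and grown in the same medium with docetaxel, a taxane that stabilises microtubules. Resistance and drug exposure were therefore joined in every comparison of a resistant with its parental line, and their parts cannot be told apart. Replicates 1 and 2 of each group were on the smaller array type (8 arrays) and replicate 3 on the larger (4 arrays). The sources used here do not say whether replicates were separate cultures, and p-values therefore rest on the spread from array to array, which may be technical.

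DNA repair is divided by the kind of lesion. Mismatch repair corrects copying errors behind the replication fork, base excision repair replaces single damaged bases, and nucleotide excision repair cuts out bulky adducts. Double-strand breaks are rejoined directly by end joining or copied from the sister chromatid by homologous recombination, which the Fanconi anaemia proteins also use when they unhook crosslinks, while ATM, ATR and their effector kinases CHEK1 and CHEK2 halt the cell cycle. Many genes of recombination, mismatch repair and the Fanconi pathway are expressed most in S phase, so a list of S phase genes was read beside them.

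The deposited values are probe-set intensities on a linear scale, and the number of arrays limits their precision. The 5th percentile of a smaller array was 35.8 to 38.6 for DU145 and DU145-DR but 11.5 to 12.3 for 22Rv1 and 22Rv1-DR, so levels were compared between lines only after quantile normalization within an array type. Line markers followed the labels. KLK2 and HOXB13, genes of prostate luminal cells, stood at percentiles 88.2 to 91.5 and 69.3 to 81.2 of all probe sets on 22Rv1 and 22Rv1-DR arrays against 34.5 to 46.0 and 9.57 to 27.1 on DU145 and DU145-DR arrays, while VIM (percentile 99.2 or higher against 48.9 to 65.4) and AXL (97.3 to 98.6 against 7.16 to 11.8) ran the other way.

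All 41 genes exceeded the limit for dim genes, an intensity of 74.0, in at least 1 group mean, and 34 did so in all 4 groups. The limit was set on the deposited values, where DU145 and DU145-DR have the higher floor, so the number of groups a gene passed in is no comparison of the lines. By mean percentile over the 8 arrays the highest were XRCC6 and XRCC5, the Ku proteins that hold broken ends, and PARP1, the sensor of strand breaks; the lowest were ERCC4, a nuclease subunit, and XRCC3, a protein of homologous recombination. XRCC6 read 4068 to 8364 over the 8 arrays and ERCC4 15.6 to 161. Differences between these genes in intensity also hold differences between their probes.

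In DU145-DR against DU145, 2 of 41 DNA repair genes changed: CHEK2 fell and ERCC3 rose. The background was 11.0% of the 9713 genes tested (5.53% higher and 5.48% lower), so the members' share lay below it. The median change of the 41 genes was 0.02 on the log2(intensity + 16) scale, against -0.01 over all genes tested; it ranged from -0.14 without DU145-DR replicate 2 to 0.24 without DU145-DR replicate 1, so its sign turned on single arrays. A change was called where limma's two-sided moderated test on the 8 smaller arrays gave a p, adjusted after Benjamini and Hochberg across all genes tested, under 0.05. Replicate 3 was read separately, as 1 pair with no test.

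CHEK2, the kinase that carries the ATM signal to p53 and other targets, read 1121 and 1541 on the DU145 arrays and 375 and 776 on the DU145-DR arrays. On the larger array type it read 1003 in DU145 and 416 in DU145-DR. The parental and resistant arrays did not overlap on the 8-array table, and the change was -1.26 ± 0.32 (log2, SE, n = 2 against 2), a 2.39-fold lower level with an adjusted p of 0.040, beside -1.24 in the third pair. The change ranged from -0.75 without DU145-DR replicate 1 to -1.77 without DU145-DR replicate 2. The call held without DU145-DR replicate 2 and was lost without any other single array, including the 22Rv1 arrays that enter only the shared spread (adjusted p 0.0641 to 0.212); it was also lost after a shift of the arrays to 1 median (0.0576), without the filter on dim genes (0.0609) and with only the 4 arrays compared (0.0979).

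ERCC3, the XPB helicase of transcription factor TFIIH that opens DNA around a lesion, read 370 and 402 in DU145 and 605 and 809 in DU145-DR. The third pair read 302 and 437. The DU145-DR arrays all lay above the DU145 arrays of their array type, with a change of 0.83 ± 0.22 (log2, SE, n = 2 against 2), 1.78-fold, and an adjusted p of 0.0478, beside 0.51 in the third pair. ERCC3 was higher and CHEK2 lower in DU145-DR in 3 of 3 pairs. The ERCC3 call held without DU145-DR replicate 1 (adjusted p 0.0279) and was lost without any other single array (0.0739 to 0.183), after a shift to 1 median (0.0557), with a pseudocount of 1 (0.0627), without the filter on dim genes (0.0527), with every probe set tested (0.0564), with only the 4 arrays compared (0.149) and with both array types in 1 fit (0.410).

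**Figure D1:**
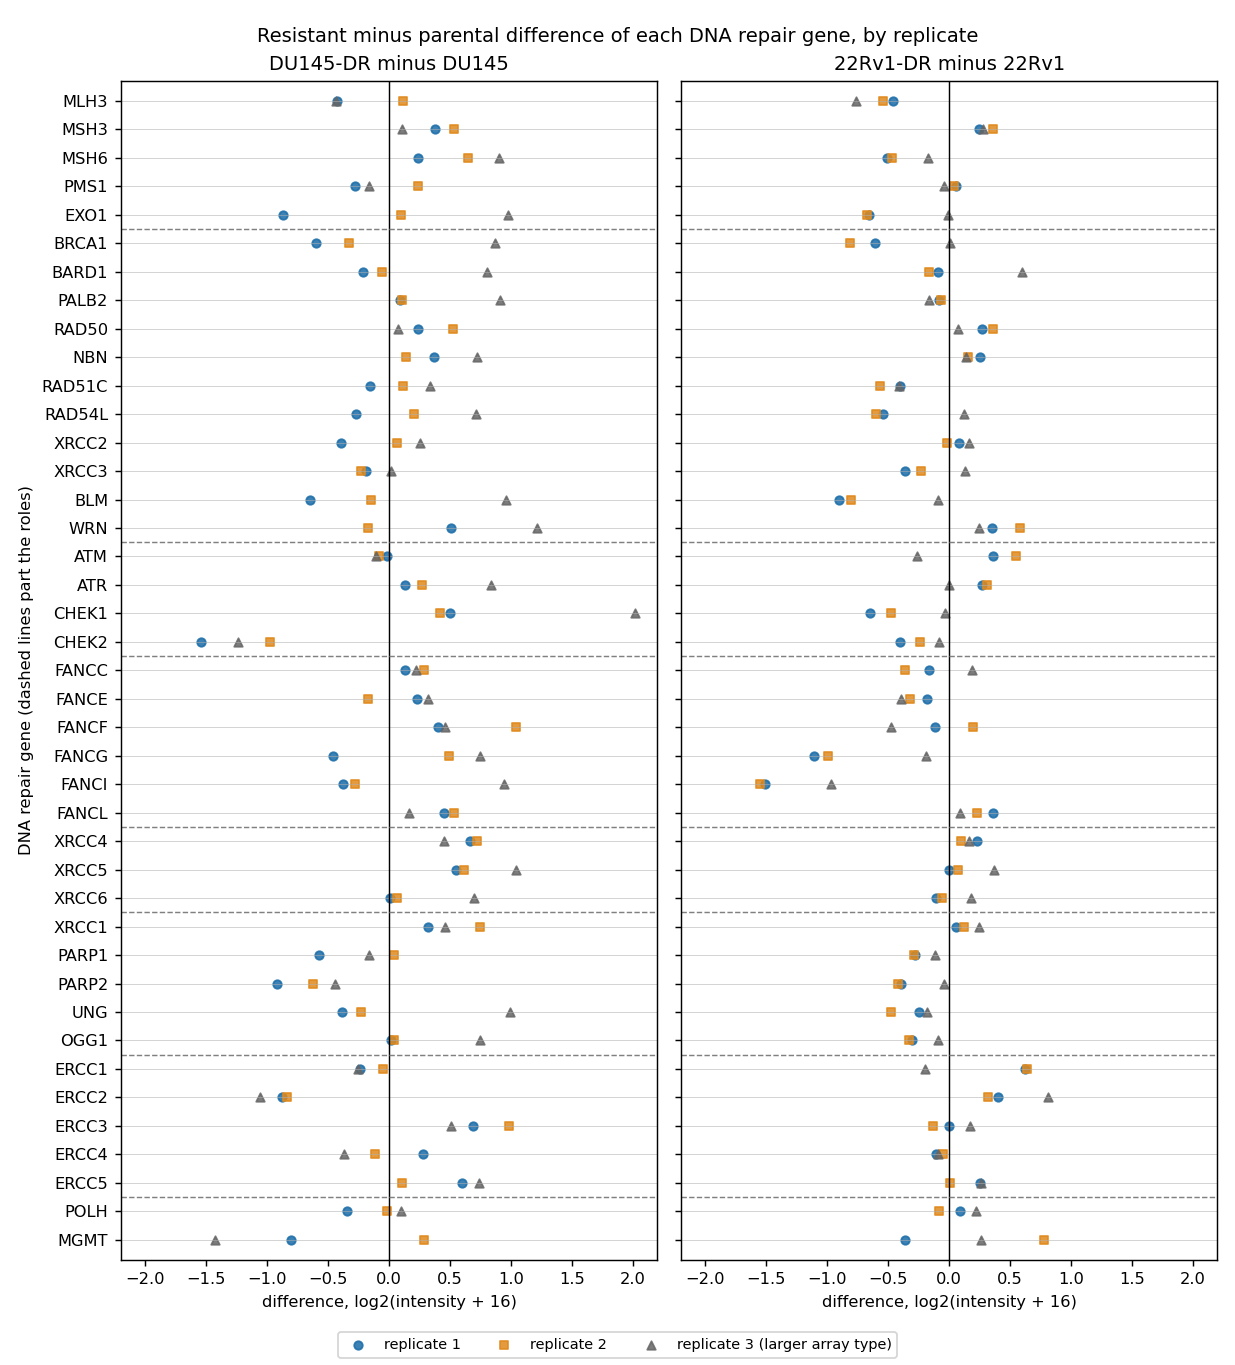
Difference of each of the 41 DNA repair genes between the resistant and the parental line, in log2(intensity + 16), for DU145 (left) and 22Rv1 (right). Each point is 1 replicate pair (circles replicate 1, squares replicate 2, triangles replicate 3 on the larger array type), and dashed lines part the roles. CHEK2 lies left of 0 in all 3 DU145 pairs and ERCC3 right of it, and FANCI lies left of 0 in all 3 22Rv1 pairs.

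The replicate numbers pair the arrays of a line, since deviations from the group means correlated across genes between the parental and the resistant array of a number (0.693 in DU145, 0.792 in 22Rv1). With a term for each line and replicate number (the replicate block) 15 of 41 members passed in DU145, 10 higher and 5 lower, against a background of 35.5% (18.6% higher and 16.9% lower). After quantile normalization without the block 5 passed (background 18.2%), namely CHEK2 (-1.31, adjusted p 0.0175), ERCC3 (0.85, 0.00957), XRCC5 (0.66, 0.0202), PARP2 (-0.82, 0.0216) and FANCF (0.76, 0.0444). With the block CHEK2 had an adjusted p of 0.00381 and ERCC3 of 0.00473. On replicates 1 and 2 the parental and resistant arrays did not overlap for 13 of 41 members, 31.7%, against 42.0% of all genes tested. The 15 that passed with the block were CHEK2, ERCC3, the 8 described next, and MSH3, MSH6, RAD50, CHEK1 and FANCI.

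Among the 8 largest of those that passed with the block but not without it on the deposited values, ERCC2, the XPD helicase that partners ERCC3 in TFIIH, went the other way from ERCC3. It read 214 and 338 in DU145 and 109 and 182 in DU145-DR, with 167 and 71.5 in the third pair. The groups did not overlap, and the change was -0.86 ± 0.28 (adjusted p 0.0949, 0.00235 with the block, pair 3 -1.06).

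PARP2, a strand-break sensor related to PARP1, read 1734 and 2091 in DU145 and 910 and 1351 in DU145-DR, and 917 and 671 in the third pair. Its change was -0.77 ± 0.24 (adjusted p 0.0799, 0.00532 with the block), with no overlap of the groups. PARP1 itself did not pass with or without the block.

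FANCF, an adaptor of the Fanconi core complex, read 208 and 205 in DU145 and 280 and 440 in DU145-DR, and 99.0 and 142 in the third pair, a change of 0.72 ± 0.23 (adjusted p 0.0896, 0.0285 with the block). FANCL, the ubiquitin ligase of that complex, read 1278 and 1911 against 1758 and 2778, where the groups overlapped, with 1438 and 1618 in the third pair; its change was 0.50 ± 0.28 (adjusted p 0.342, 0.0121 with the block). By the probe set used, both were higher in DU145-DR in each of the 3 pairs.

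Of end joining, XRCC4, the scaffold of DNA ligase IV, read 298 and 375 in DU145 and 481 and 630 in DU145-DR, and 36.8 and 56.1 in the third pair, with a change of 0.69 ± 0.26 (adjusted p 0.134, 0.00450 with the block). XRCC5, the larger Ku subunit, read 4211 and 5008 against 6165 and 7697, and 2665 and 5518 in the third pair, with a change of 0.58 ± 0.20 (0.111, 0.00657 with the block). Neither gene's groups overlapped. XRCC6, the smaller Ku subunit, changed by 0.04 on 8 arrays and did not pass with the block.

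XRCC1, the scaffold of single-strand break repair, read 176 and 184 in DU145 and 224 and 320 in DU145-DR, and 193 and 271 in the third pair, a change of 0.54 ± 0.26 (adjusted p 0.257, 0.0256 with the block). BRCA1, which starts recombination at resected ends, read 1193 and 1771 against 781 and 1409, overlapping, and went the other way in the third pair, 523 and 969. Its change was -0.46 ± 0.30 on 8 arrays (adjusted p 0.433, 0.0281 with the block) against 0.87 in the third pair. The third pair was also the only one on the larger array type, so replicate and array type cannot be told apart there.

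When the third pair joined the block fit, 12 of 41 members passed (9 higher, 3 lower; background 30.4%, of which 16.2% higher and 14.2% lower). CHEK2 (-1.25, adjusted p 0.00148), ERCC2 (-0.92, 0.00307) and PARP2 (-0.66, 0.0115) were the 3 lower ones. ERCC3 (0.73, 0.00670), XRCC5 (0.74, 0.00862), XRCC4 (0.61, 0.00551), FANCF (0.63, 0.0344), XRCC1 (0.51, 0.0162) and FANCL (0.39, 0.0403) were among the higher ones, and MSH6, NBN and ERCC5 completed them. In the third pair other XRCC4 probe sets that reached higher values on the larger arrays gave -0.27 and -0.06, though they rose in pairs 1 and 2. A dimmer XRCC4 probe set gave 0.15, and a second FANCF probe set gave -0.11. BRCA1 did not pass (-0.02, adjusted p 0.974). Under both block fits the members' share lay near the background.

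**Figure D2:**
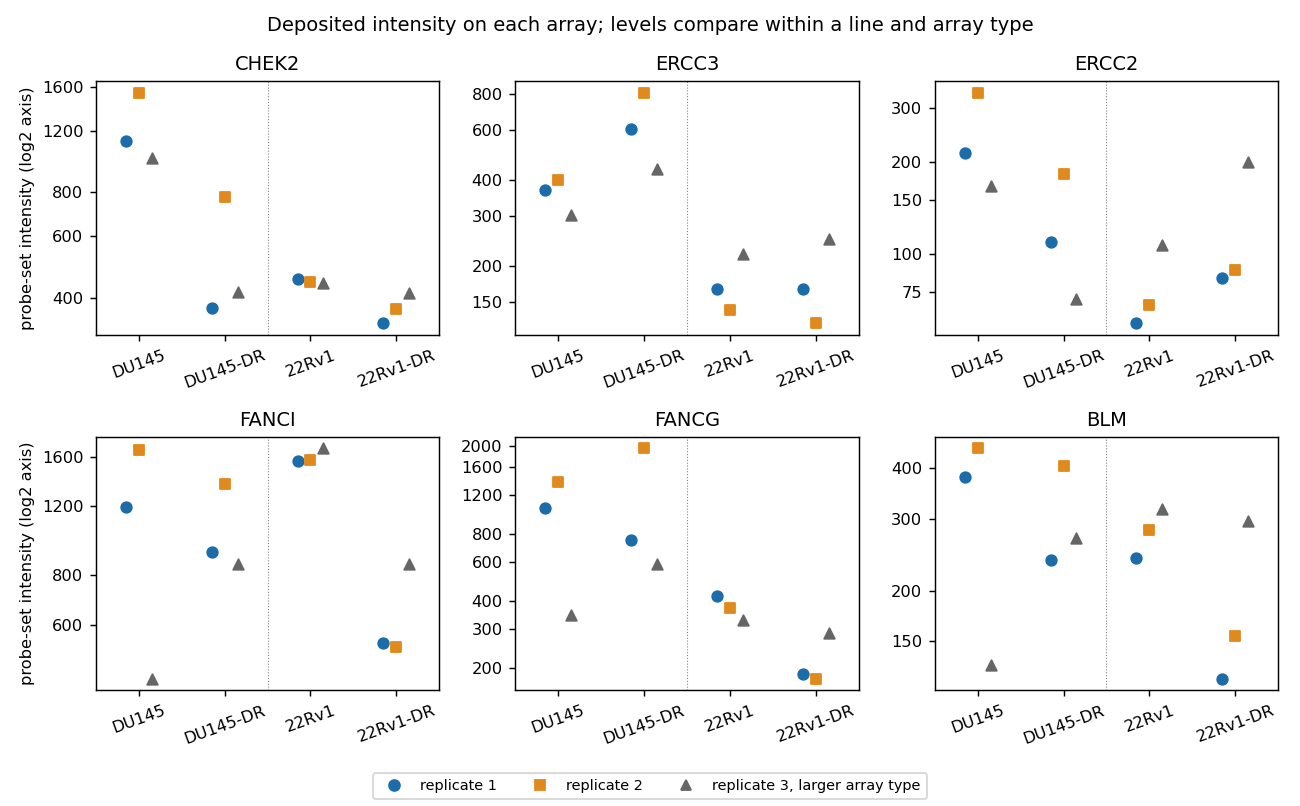
Deposited probe-set intensity on a log2 axis for CHEK2, ERCC3, ERCC2, FANCI, FANCG and BLM, with 1 point per array in each of the 4 groups (circles replicate 1, squares replicate 2, triangles replicate 3 on the larger array type). Levels may be read within a line and an array type only, since the DU145 arrays of the smaller type have a higher floor. CHEK2 falls from 1121 and 1541 to 375 and 776 in DU145-DR, and FANCI from 1563 and 1574 to 537 and 526 in 22Rv1-DR.

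The 250 bases before the annotated start of CHEK2 and ERCC3 are printed because these were the 2 members called in DU145, in opposite directions. They are RefSeq sequences of GRCh38.p14, read on the minus strand for both genes: chr22:28741821-28742070 for CHEK2 and chr2:127294145-127294394 for ERCC3. Capitals mark CCAAT boxes (CCAAT on either strand, so ATTGG too), the letters bound by the trimeric factor NF-Y.
CHEK2: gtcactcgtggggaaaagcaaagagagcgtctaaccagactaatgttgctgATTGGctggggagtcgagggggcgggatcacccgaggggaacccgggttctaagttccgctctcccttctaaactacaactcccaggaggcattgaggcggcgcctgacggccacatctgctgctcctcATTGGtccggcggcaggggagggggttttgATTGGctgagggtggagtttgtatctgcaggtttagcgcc
ERCC3: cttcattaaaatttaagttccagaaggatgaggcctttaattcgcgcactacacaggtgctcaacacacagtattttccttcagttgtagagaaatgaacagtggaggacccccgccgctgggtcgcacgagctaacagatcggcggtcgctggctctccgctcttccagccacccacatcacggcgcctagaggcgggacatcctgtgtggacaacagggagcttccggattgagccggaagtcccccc
The CHEK2 sequence holds 3 such boxes and the ERCC3 sequence 0. Of the 41 members 37 had an entry, and 17 of these 37 held a CCAAT box in this window (45.9%), against 37.0% of 27305 genes. The letters of E2F sites, searched as TTTCCCGC, TTTGGCGC, TTTCGCGC and TTTGCCGC on both strands, stood before 3 of the 37 (8.11%), MSH3, FANCC and UNG, against 3.40% of all genes. A match is a description of the letters, and binding was not measured.

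In 22Rv1-DR against 22Rv1, 1 of 41 DNA repair genes changed, FANCI, which fell; the background was 5.56% of 9713 genes (3.13% higher and 2.43% lower). The median change of the members was -0.08 (-0.21 to -0.04 without single arrays), against 0.01 over all genes tested. FANCI is the partner of FANCD2 in the clamp that is ubiquitinated at stalled forks. It read 1563 and 1574 on the 22Rv1 arrays and 537 and 526 on the 22Rv1-DR arrays, and 1687 and 855 in the third pair.

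The FANCI arrays of the parental and the resistant line did not overlap on replicates 1 and 2, which lay close together in each group. The third pair, with 1 array per group, was lower in 22Rv1-DR too. The change was -1.53 ± 0.25 (log2, SE, n = 2 against 2), a 2.89-fold lower level, with an adjusted p of 0.00816 (0.000623 with the block), beside -0.97 in the third pair. A second FANCI probe set gave -1.41 (adjusted p 0.005 in the fit of every probe set) and -0.94 in the third pair. Another FANCI probe set, found only on the larger array type, went the other way there and was higher in 22Rv1-DR by 0.50. Leaving out any single array of 22Rv1 or 22Rv1-DR ended the call (adjusted p 0.0651 to 0.0705), with the change between -1.55 and -1.52, and in 1 fit of both array types with the table as a block (0.109).

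With the replicate block 12 of 41 members passed in 22Rv1, 3 higher and 9 lower, against a background of 22.1% (12.6% higher and 9.51% lower). After quantile normalization without the block FANCI alone passed (-1.48, adjusted p 0.00158, background 8.70%). The 9 lower ones were FANCI, FANCG, BLM, BRCA1, RAD54L, CHEK1, MSH6, RAD51C and PARP2, and the 3 higher ones ERCC1, ERCC2 and ATM. On replicates 1 and 2 the parental and resistant arrays did not overlap for 26 of 41 members, 63.4%, against 52.3% of all genes tested. The 8 described next passed with the block but not without it.

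FANCG, a scaffold of the Fanconi core complex, read 422 and 372 in 22Rv1 and 187 and 179 in 22Rv1-DR, but 329 and 286 in the third pair. Its change was -1.05 ± 0.38 (adjusted p 0.199, 0.0282 with the block), beside -0.19 in the third pair. BLM, the helicase that dissolves crossed recombination intermediates, read 241 and 282 against 121 and 154, and 317 and 296 in the third pair (-0.86 ± 0.27, adjusted p 0.129, 0.0125 with the block, pair 3 -0.10).

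BRCA1 read 1128 and 1082 in 22Rv1 and 734 and 609 in 22Rv1-DR, and 1399 and 1409 in the third pair (-0.71 ± 0.30, adjusted p 0.293, 0.0115 with the block). RAD54L, a motor protein of homologous recombination, read 286 and 260 against 191 and 165, and 317 and 347 in the third pair (-0.57 ± 0.20, 0.168, 0.0357 with the block). The third pair showed no lower level for either gene.

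RAD51C, a protein of homologous recombination, read 556 and 534 against 416 and 355, and 739 and 553 in the third pair (-0.49 ± 0.28, adjusted p 0.481, 0.0318 with the block, pair 3 -0.41). CHEK1, the effector kinase of ATR, read 276 and 313 against 170 and 220, and 428 and 416 in the third pair (-0.57 ± 0.21, 0.198, 0.0132 with the block). RAD51C was thus lower in all 3 pairs by similar amounts, while CHEK1 was near 0 in the third.

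MSH6, a mismatch recognition protein, read 815 and 867 in 22Rv1 and 568 and 622 in 22Rv1-DR, and 1144 and 1010 in the third pair (-0.49 ± 0.33, adjusted p 0.602, 0.0444 with the block). ERCC1, the partner of the ERCC4 nuclease, was the largest on the higher side, 309 and 249 against 484 and 396, but 402 and 347 in the third pair (0.63 ± 0.20, 0.135, 0.00963 with the block, pair 3 -0.20). When the third pair joined the block fit, 2 of 41 members passed, FANCI (-1.34, adjusted p 0.0276) and MLH3, both lower, against a background of 8.83% (4.90% higher and 3.93% lower).

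The promoter windows of FANCG and BLM are printed as the 2 largest of the members that passed in 22Rv1 with the block but not without it. FANCG is at chr9:35079943-35080192 on the minus strand and BLM at chr15:90717096-90717345 on the plus strand (RefSeq, GRCh38.p14); capitals mark CCAAT boxes in either orientation.
FANCG: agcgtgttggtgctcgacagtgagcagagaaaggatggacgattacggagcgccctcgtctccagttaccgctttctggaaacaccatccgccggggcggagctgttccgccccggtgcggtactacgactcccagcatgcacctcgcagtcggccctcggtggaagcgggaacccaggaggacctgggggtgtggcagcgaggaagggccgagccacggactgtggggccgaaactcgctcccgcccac
BLM: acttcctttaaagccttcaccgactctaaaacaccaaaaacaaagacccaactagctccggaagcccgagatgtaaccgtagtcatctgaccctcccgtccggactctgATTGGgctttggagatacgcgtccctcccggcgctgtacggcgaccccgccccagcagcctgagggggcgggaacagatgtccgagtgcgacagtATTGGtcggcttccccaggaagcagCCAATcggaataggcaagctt
The BLM sequence holds 3 CCAAT boxes and the FANCG sequence 0, and neither holds the E2F letters searched.

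The 2 lines were compared through the difference of their changes (22Rv1 change minus DU145 change). In limma's fit 0 of 41 members passed, against a background of 8.0% (777 genes); 5 members had an unadjusted p under 0.05, namely CHEK1, FANCI, ERCC1, ERCC2 and ERCC3. The median difference over the members was -0.17, against 0.01 over all genes; it ranged from -0.37 without DU145-DR replicate 1 to 0.04 without DU145-DR replicate 2, so its sign turned on 1 array. After quantile normalization 3 members passed (background 14.0%), CHEK1 (-1.04, adjusted p 0.0486), FANCI (-1.10, 0.0190) and ERCC3 (-0.97, 0.0254).

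With the replicate block 10 of 41 members passed (4 higher, 6 lower; background 31.7%, of which 16.6% higher and 15.1% lower), and with the third pair added 5 did (2 higher, 3 lower; background 20.4%, of which 10.8% higher and 9.53% lower). These 5 were ERCC2 (1.43, adjusted p 0.00365), CHEK2 (1.01, 0.0132), MSH6 (-0.98, 0.0195), ERCC3 (-0.71, 0.0310) and FANCI (-1.44, 0.0391). ERCC2 was lower in DU145-DR in each pair and higher in 22Rv1-DR in each pair, where it read 59.3 and 68.1 in 22Rv1 and 83.3 and 88.6 in 22Rv1-DR, and 107 and 199 in the third pair. MSH6 ran the other way, higher in DU145-DR in each pair (2759 and 4124 against 3259 and 6472, pair 3 1314 and 2469) and lower in 22Rv1-DR.

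The third DU145 pair stood apart from the first 2 for the members as a set. The median difference of the 41 genes was -0.02 in pair 1, 0.11 in pair 2 and 0.46 in pair 3, where 31 of 41 genes (75.6%) were higher in DU145-DR, against 49.2% of all genes tested. Of the 93 other DNA repair genes tested 69 (74.2%) were higher in that pair, with a median of 0.35. By the probe set used, all 11 genes of homologous recombination were higher there, with a median of 0.72. So were all 6 Fanconi genes (median 0.39) and all 3 genes of end joining (median 0.70), while the other roles went both ways. XRCC3 was higher by 0.01 only (38.6 and 39.1). Other probe sets of RAD51C (-0.36), NBN (-0.31) and BARD1 (-0.05) were lower in that pair. The remaining other probe sets of BRCA1, BARD1, RAD50 and NBN were higher. CHEK1 moved most, from 160 to 695 (2.02 on the log2 scale), against 0.50 and 0.42 in pairs 1 and 2.

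S phase genes moved with the members in that pair. Over the 38 S phase genes tested, none of them a member, the median was -0.07, 0.28 and 1.22 in the 3 DU145 pairs, with 35 of 38 higher in pair 3, while the median over all genes was -0.05, 0.03 and -0.01. In 22Rv1 the S phase medians were -0.62, -0.64 and -0.08, beside -0.11, -0.08 and 0 for the members. In limma's fit 1 of 38 S phase genes rose in DU145-DR (POLA1), with a background of 5.53%, and 3 fell in 22Rv1-DR (GINS2, MCM2 and E2F1), with a background of 2.43%. With the replicate block 28 of 38 were lower and 0 higher in 22Rv1-DR, against a background of 9.51% lower and 12.6% higher. With the block 7 were higher and 5 lower in DU145-DR (background 35.5% in either direction), and 20 were lower for the difference (background 15.1% lower). Without the block 6 of 38 passed for the difference, all lower (15.8%, background 8.0% in either direction). The block fit with the third pair gave 8 for the difference, all lower (background 9.53% lower). With the third pair added to the block fit, 2 of 38 were lower in 22Rv1-DR (background 3.93%). Between the parental lines 19 of 38 S phase genes were higher in 22Rv1 (background 26.2%), and between the resistant lines 3 were higher (26.4%) and 9 lower (23.9%) in 22Rv1-DR. The part of the S phase genes in the members' differences was not tested.

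**Figure D3:**
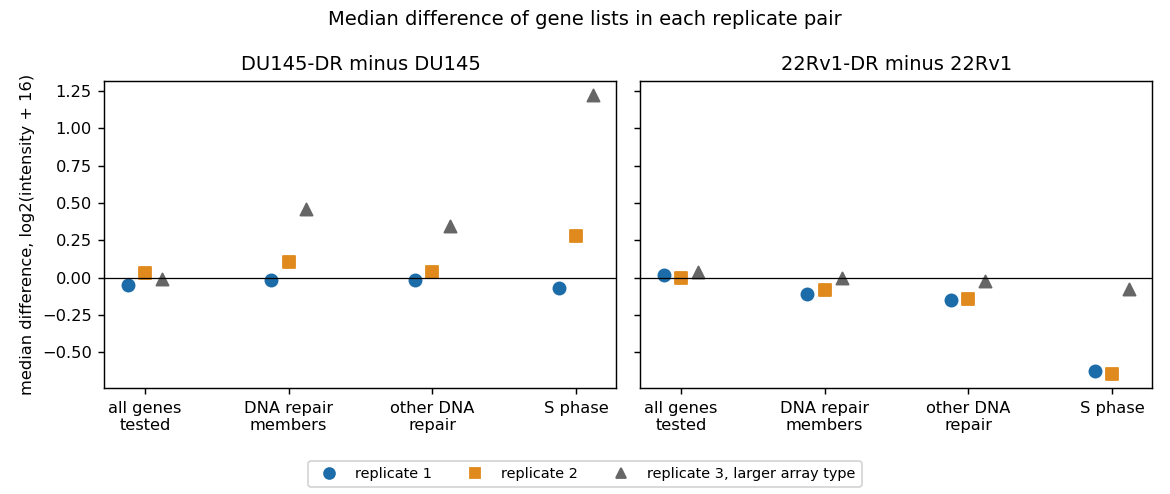
Median resistant minus parental difference, in log2(intensity + 16), of all 9713 genes tested, the 41 DNA repair members, 93 other DNA repair genes and 38 S phase genes, for each replicate pair of DU145 (left) and 22Rv1 (right). In DU145 the third pair lies highest for the members (0.46) and the S phase genes (1.22), while all genes stay near 0.

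Between the parental lines, 16 of 40 members differed after quantile normalization, 10 higher and 6 lower in 22Rv1; XRCC3 was left out as dim. The background was 49.3% of 8934 genes (26.2% higher and 23.1% lower), so the members' share was below it. The median difference of the members was 0.05 (22Rv1 minus DU145), against 0.04 over all genes. Of the 16, 15 had the same sign on the larger array type, the exception being NBN.

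MGMT, which removes alkyl groups from guanine in a single step, was the largest. Its quantile-normalized log2 level was 9.41 and 9.13 in DU145 and 6.19 and 6.32 in 22Rv1, with 9.42 and 5.66 on the larger array type. The difference was -3.02 ± 0.45 (adjusted p 0.00132), beside -3.76 on the third arrays. The deposited MGMT intensities in 22Rv1 and 22Rv1-DR, 19.6 to 67.2, all lay under the limit for dim genes, so the size of this difference depends on the floor of those arrays.

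FANCF was the largest on the other side, 7.03 and 7.12 in DU145 and 9.64 and 9.49 in 22Rv1, and 6.84 and 9.54 on the larger array type. Its difference was 2.49 ± 0.21 (adjusted p 8.64e-05), beside 2.69 on the third arrays. FANCF and MGMT are thus ordered the same way on both array types, with no overlap between the lines on the smaller type.

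RAD50, the long coiled-coil arm of the complex that first binds a break, was at 7.82 and 7.70 in DU145 and 9.29 and 9.29 in 22Rv1 (1.53 ± 0.14, adjusted p 0.000129, replicate 3 arrays 0.91). NBN, its partner in that complex, was at 10.52 and 10.86 in DU145 and 9.64 and 9.63 in 22Rv1 (-1.05 ± 0.16, 0.00130), but 9.98 and 10.03 on the third arrays, a difference of 0.05. Subunits of 1 complex thus differed in opposite directions in the 8-array table, and on the larger array type the NBN difference was near 0.

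FANCI was at 9.76 and 9.94 in DU145 and 11.22 and 11.22 in 22Rv1 (1.37 ± 0.16, adjusted p 0.000384, replicate 3 arrays 1.84). XRCC4 was lower in 22Rv1, 6.49 and 6.13 against 7.62 and 7.90 (-1.45 ± 0.22, 0.00136, replicate 3 arrays -0.29), with deposited intensities near the floor in 22Rv1 (39.9 and 27.3). The remaining members among the 10 largest were FANCL (0.88 ± 0.17), BRCA1 (0.86 ± 0.21), PMS1 (0.83 ± 0.20), a mismatch repair protein, and XRCC1 (0.82 ± 0.22), with differences on the replicate 3 arrays of 0.06, 1.33, 0.06 and 0.01. UNG, which removes uracil from DNA, and CHEK1 did not pass on the 8 arrays but differed by 1.61 and 1.28 on the replicate 3 arrays. The calls of PMS1, BRCA1 and XRCC1 were each lost without some single array (adjusted p up to 0.0736, 0.0744 and 0.119).

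**Figure D4:**
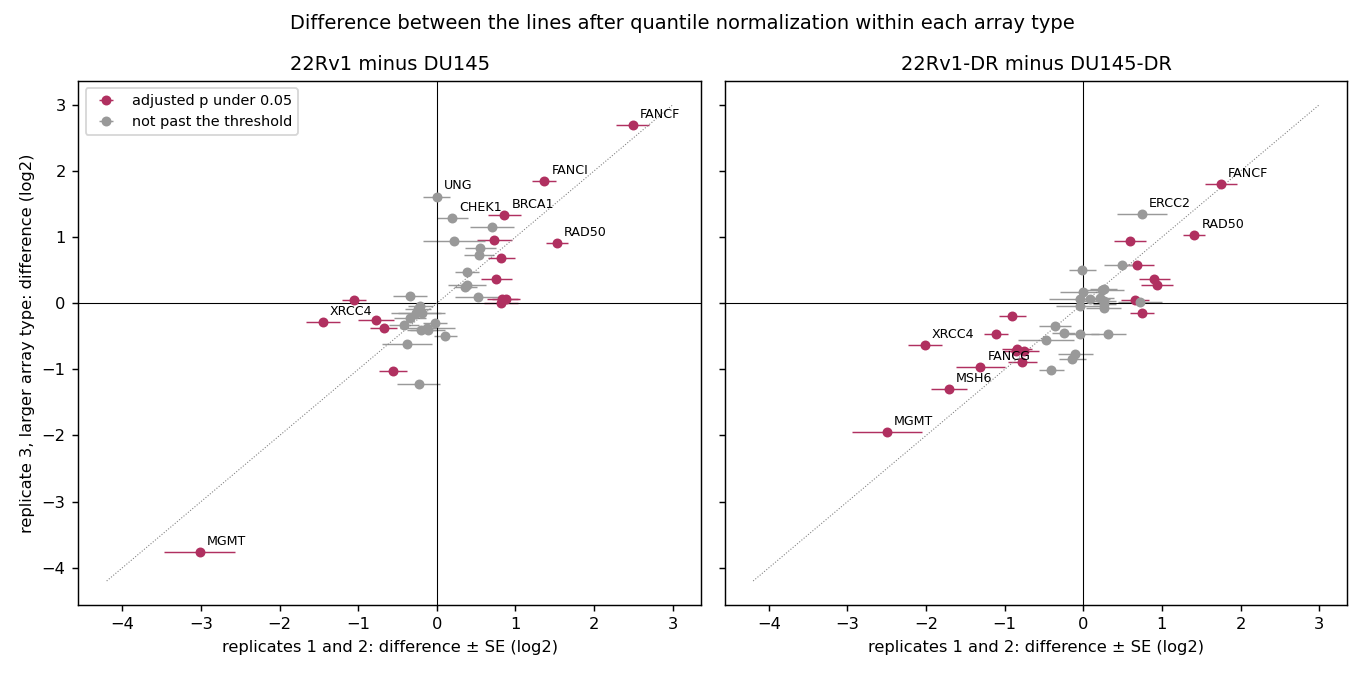
Difference between the lines of each DNA repair gene after quantile normalization, in log2(intensity + 16), for 22Rv1 minus DU145 (left) and 22Rv1-DR minus DU145-DR (right). The x axis gives replicates 1 and 2 with the SE as a bar and the y axis replicate 3 on the larger array type; red points passed the threshold, and the dotted line marks equal values. MGMT is the lowest in both (-3.02 and -2.50), and FANCF the highest (2.49 and 1.75).

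The windows of FANCF and MGMT are printed as the members with the largest difference between the lines in each direction. FANCF is at chr11:22625824-22626073 on the minus strand and MGMT at chr10:129466991-129467240 on the plus strand (RefSeq, GRCh38.p14); capitals mark CCAAT boxes in either orientation.
FANCF: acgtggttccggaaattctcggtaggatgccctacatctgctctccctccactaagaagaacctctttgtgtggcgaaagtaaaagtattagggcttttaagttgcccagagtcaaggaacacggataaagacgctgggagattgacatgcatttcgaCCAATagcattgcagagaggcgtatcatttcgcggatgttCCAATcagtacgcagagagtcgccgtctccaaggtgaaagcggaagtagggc
MGMT: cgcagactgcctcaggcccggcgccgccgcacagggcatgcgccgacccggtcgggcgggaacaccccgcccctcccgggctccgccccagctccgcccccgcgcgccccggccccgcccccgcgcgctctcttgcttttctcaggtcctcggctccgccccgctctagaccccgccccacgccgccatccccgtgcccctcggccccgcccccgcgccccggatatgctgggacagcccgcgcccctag
The FANCF sequence holds 2 CCAAT boxes and the MGMT sequence 0. The MGMT window has 36 CG pairs and a GC content of 80.4%, and the FANCF window 14 and 49.2%, against a median of 21 CG pairs over the members' windows and 11 over all 35116 entries. DNA methylation was not measured.

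Between the resistant lines, 18 of 40 members differed, 8 higher and 10 lower in 22Rv1-DR, against a background of 50.3% (26.4% higher and 23.9% lower). The median difference was -0.01 (-0.13 to 0.30 without single arrays), against 0.02 over all genes. MGMT was at 8.54 and 9.36 in DU145-DR and 5.76 and 7.14 in 22Rv1-DR (-2.50 ± 0.45, adjusted p 0.00310, replicate 3 arrays -1.95). FANCF was at 7.55 and 8.11 against 9.48 and 9.68 (1.75 ± 0.21, 0.000454, replicate 3 arrays 1.80).

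MSH6 was at 11.28 and 11.92 in DU145-DR and 9.78 and 10.00 in 22Rv1-DR (-1.71 ± 0.23, adjusted p 0.000826, replicate 3 arrays -1.29). XRCC4 was at 8.38 and 8.58 against 6.69 and 6.24 (-2.02 ± 0.22, 0.000296, replicate 3 arrays -0.63). FANCG was at 9.04 and 10.11 against 8.22 and 8.32 (-1.31 ± 0.31, 0.0111, replicate 3 arrays -0.96), a call lost without 1 array (adjusted p 0.0590).

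RAD50 (1.41 ± 0.14) and NBN (-1.11 ± 0.16) again lay on opposite sides, with differences on the replicate 3 arrays of 1.04 and -0.47. PMS1 (0.94 ± 0.20), XRCC2 (0.90 ± 0.20), a protein of homologous recombination, and ERCC4 (-0.90 ± 0.17), the XPF nuclease, completed the 10 largest, with differences on the replicate 3 arrays of 0.28, 0.36 and -0.19. ERCC4 lay near the floor in 22Rv1-DR (deposited intensities 17.3 and 15.6). After quantile normalization ERCC4 passed the limit for dim genes (log2 6.36) only through DU145-DR (mean 6.486). The filter thus let it in through the group that is higher in this comparison. The parental and the resistant comparisons share no array, and FANCI, which differed by 1.37 between the parental lines, differed by 0.26 between the resistant lines and did not pass there (adjusted p 0.194).

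**Figure D5:**
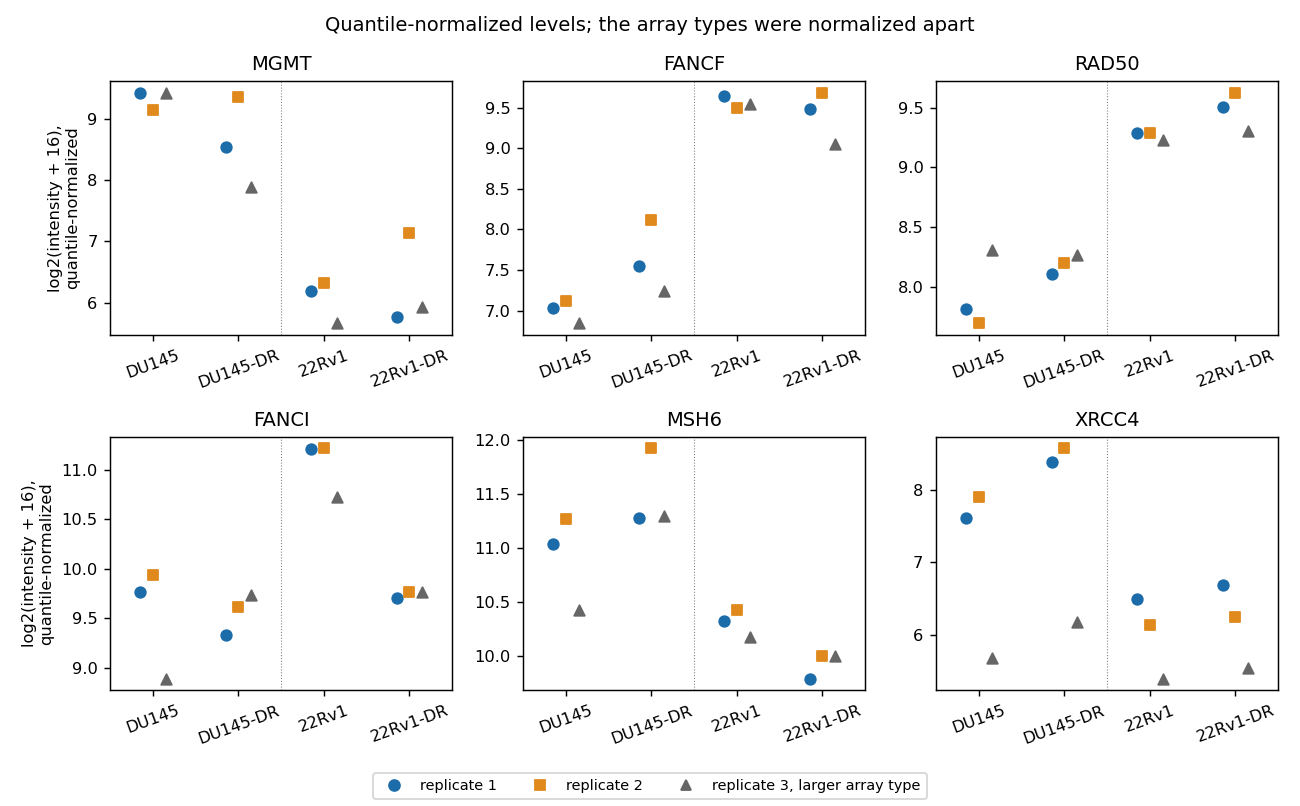
Quantile-normalized log2(intensity + 16) of MGMT, FANCF, RAD50, FANCI, MSH6 and XRCC4, with 1 point per array in each of the 4 groups (circles replicate 1, squares replicate 2, triangles replicate 3 on the larger array type, normalized apart). MGMT lies at 8.54 to 9.41 on the DU145 and DU145-DR arrays of the smaller type and at 5.76 to 7.14 on the 22Rv1 and 22Rv1-DR arrays, and FANCF the other way round.

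Other probe sets of the members at times gave other values than the one used. Of the 41 genes 24 had 1 probe set on the smaller array type and 17 had several. A second XRCC5 probe set rose in DU145-DR (1.10, adjusted p 0.040), did not pass in 22Rv1-DR (-0.53) and passed for the difference (-1.63, adjusted p 0.042), where the one used gave 0.58, 0.04 and -0.55. The second FANCI probe set fell in DU145-DR too (-0.86, adjusted p 0.034), where the one used gave -0.33; in the third DU145 pair both were higher in DU145-DR, by 0.55 and 0.94. For ATM, the kinase that answers double-strand breaks, 2 other probe sets gave -1.41 and -1.95 between the parental lines, while the one used gave -0.12. For MSH3, which reads insertion loops, a second probe set gave 0.91 against -0.56 for the one used. Signs also differed within a line. A second RAD50 probe set was lower in each 22Rv1 pair (-0.40, -0.42 and -0.30), where the one used was higher (0.27, 0.36 and 0.07). A second ERCC1 probe set was higher in each DU145 pair (0.33, 0.50 and 0.41), where the one used was lower (-0.23, -0.05 and -0.25).

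The other DNA repair genes are a list of 117, of which 93 were tested. For the changes within a line and their difference, their shares lay under the background in the fit without the block. In DU145-DR 5 rose and 2 fell (7.53%, background 11.0%), in 22Rv1-DR 2 rose and 2 fell (4.30%, background 5.56%), and for the difference 2 were higher and 4 lower (6.45%, background 8.0%). With the replicate block 40 passed in DU145-DR, 22 higher and 18 lower (background 35.5%, of which 18.6% higher and 16.9% lower). In 22Rv1-DR 29 passed, 7 higher and 22 lower (background 22.1%, of which 12.6% higher and 9.51% lower). For the difference 33 passed, 7 higher and 26 lower (background 31.7%, of which 16.6% higher and 15.1% lower). GTF2H1, another TFIIH subunit, rose in DU145-DR (1.38 ± 0.18, adjusted p 0.00209, pair 3 1.70), as did XPA, which checks the lesion (1.16 ± 0.23, 0.0162, pair 3 1.20), and ERCC8 (1.11 ± 0.21, 0.0119, pair 3 0.27), while TDP1, which clears trapped topoisomerase, fell (-1.40 ± 0.23, 0.00698, pair 3 -0.84). RAD51AP1 fell too (-1.23 ± 0.33, adjusted p 0.0460), beside 0.19 in the third pair, and kept its call in 1 of 8 fits without a single array (adjusted p up to 0.232). In 22Rv1-DR LIG1, the ligase of replication (-1.0 ± 0.23, 0.0400, pair 3 -0.10), and H2AX (-0.91 ± 0.21, 0.0445, pair 3 -0.49) fell, and UBE2B (0.97 ± 0.22, 0.0409, pair 3 0.26) and HLTF (0.98 ± 0.24, 0.0488, pair 3 0.24) rose. GTF2H1 kept its call without each single array, ERCC8, XPA and TDP1 in 7 of 8 such fits (adjusted p up to 0.0822), and the 4 genes named for 22Rv1-DR in 2 to 4 of 8 (up to 0.383). Between the parental lines 34 of 92 were higher and 12 lower in 22Rv1, and between the resistant lines 25 higher and 21 lower in 22Rv1-DR, shares of the same order as the background of 49.3% and 50.3%.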

How the data were processed

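Probe-set intensities were used as the authors deposited them, linear values in 2 tables (8 arrays of a smaller and 4 of a larger Affymetrix type); the submitters' processing notes list MAS5 and RMA (role and version not given in the sources used here). Probe sets with 1 gene symbol were kept, and a gene was read by its probe set with the highest mean, avoiding names that end in _x_at or _f_at. A gene was tested where its mean in at least 1 group was above an intensity of 74.0 (log2 6.49, the table's 40th percentile), and was otherwise called dim. After quantile normalization that percentile was log2 6.36. Values were log2(intensity + 16), so changes of low genes are understated. limma 3.58.1 in R 4.3.3 (lmFit, eBayes) fitted all 8 arrays with 1 term per group; values stayed as deposited for the changes within a line and were quantile-normalized between lines. The third pair was not tested alone. Alternatives were another scaling, pseudocount, filter, probe set rule, table or block, and leaving out each array; deposited log2 values have 2 decimals. Replicate arrays of the 8-array table did not hold identical values. The code was tested on simulated data. The named genes were those past the threshold, then those past it with the block, up to 8, and the 10 largest between lines. The members and lists were chosen with earlier results of these data known. The replicate numbers paired arrays by the deviations' correlation across genes (0.0688 to 0.123 across lines).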

Additional observations from a re-analysis of the deposited data

Results flagged for a closer look

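By the probe set used, for 5 DNA repair genes every replicate pair of DU145 moved one way and every pair of 22Rv1 the other. In limma's fit of 8 arrays the difference between the lines did not pass the threshold for any of them. The same pattern stood in 13.2% of the 9713 genes tested, against 12.2% of the members. The genes were chosen by the direction of these pairs, and pairs 1 and 2 enter the fit, so the values below are a description and no independent test. CHEK1 was higher in DU145-DR by 0.50, 0.42 and 2.02 and lower in 22Rv1-DR by pair differences of -0.65, -0.48 and -0.04 (22Rv1 change minus DU145 change -1.03, adjusted p 0.0709). A second CHEK1 probe set gave 0.18, 0.13 and 1.54 in DU145 but -0.90, -0.81 and 0.12 in 22Rv1. A CHEK1 probe set found only on the larger array type gave 1.10 in DU145 and 0.24 in 22Rv1. Another gave -0.03 and -0.81. ERCC2 was lower in DU145-DR (-0.88, -0.84 and -1.06) and higher in 22Rv1-DR (0.40, 0.32 and 0.81), a difference of 1.21 (adjusted p 0.110). MSH6 was higher in DU145-DR (0.24, 0.65 and 0.90) and lower in 22Rv1-DR (-0.51, -0.47 and -0.18), a difference of -0.93 (adjusted p 0.30). A second MSH6 probe set kept the pattern (0.15, 0.47 and 0.14 against -0.28, -0.49 and -0.83), and dim MSH6 ones did not. A second ERCC2 probe set, on the larger array type only, gave -0.37 in DU145 and 0.21 in 22Rv1. OGG1, a glycosylase for oxidised guanine, gave a difference of -0.35 (adjusted p 0.776), with DU145 pairs of 0.02, 0.04 and 0.75. A second OGG1 probe set did not show the pattern, with 0.05, -0.07 and 0.40 in DU145 and 0.11, -0.13 and 0.40 in 22Rv1. A dimmer OGG1 probe set did not show it either. PALB2, which links BRCA1 to BRCA2, gave -0.17 (adjusted p 0.889), with DU145 pairs of 0.09, 0.11 and 0.91.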

How the results depend on the processing

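No named result reversed its direction under any alternative run, but in many of the runs the direction could not change. The replicate block on the 8-array table, other filters on dim genes and the fit of every probe set leave each change as it was. So do, for changes within a line, the fit of only the 4 arrays compared and the loss of an array of the other line. These runs test the threshold and not the direction. Against 39 results with their reported value, 664 comparisons with an alternative stayed on the same side of the threshold, 53 moved past it and 38 fell short of it. In DU145 the 2 members called became 5 with quantile normalization, 0 with a shift to 1 median and 1 with a pseudocount of 1. They became 0 with no filter on dim genes, 3 with the mean of probe sets and 1 with every probe set tested. With only the 4 arrays compared 0 passed, and with both tables (8 and 4 arrays) and the table as a block 1. The count with every probe set tested reads each gene by the probe set used for it. Second probe sets of XRCC5 and FANCI also passed in that fit and are not in the count. With the replicate block, which uses the pairing of replicate numbers within a line, 15 passed, with both tables and the block 12, and with quantile normalization and the block (chosen after seeing the data) 16. In 22Rv1 the 1 member called became 5 with only the 4 arrays compared, 0 with both tables and the table as a block, 12 with the replicate block, 2 with both tables and the block and 9 with quantile normalization and the block. For the difference the count of 0 became 3 with quantile normalization, 10 with the replicate block, 5 with both tables and the block and 11 with quantile normalization and the block. Leaving out 1 array at a time gave 0 to 3 members in DU145, 0 to 3 in 22Rv1, 0 to 3 for the difference, 10 to 19 between the parental lines and 11 to 20 between the resistant lines. Over all genes the calls went from 1069 to 3445 in DU145, from 540 to 2149 in 22Rv1 and from 777 to 3080 for the difference with the block, to 2951, 858 and 1978 with both tables and the block, to 462, 225 and 291 with the table as a block, and to 1624 in DU145 and 1248 for the difference with quantile normalization; with only the 4 arrays compared they were 449 in DU145 and 1328 in 22Rv1. Leaving out 1 array gave 485 to 1467 genes in DU145, 218 to 850 in 22Rv1 and 321 to 1243 for the difference. The cause of these shifts was not tested. A block could not be fitted between lines, since the numbers pair arrays only within a line. MGMT, XRCC4, ERCC4 and MSH3 are near the floor in 22Rv1, which limits the size of their differences.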
